A study of Mus musculus with 16 samples.

Results

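Macrophages are tissue phagocytes that engulf dying cells and debris, sample their surroundings through scavenger and pattern recognition receptors, and depend for survival on signals through the CSF1 receptor. In skeletal muscle they lie between fibres and along vessels, and they are known for clearing damaged fibres and for gathering in the fat that can lie between muscle bundles. The 10 genes described here are widely used to mark these cells in mouse tissue. They were taken by gene name from the mRNA table (Adgre1, Cd68, Cd163, Mrc1, Lyz2, Csf1r, Itgam, Itgax, Cd14 and C1qa), which listed 23235 gene names. All 10 had enough reads to be tested, among 15364 genes tested.

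RNA was sequenced from skeletal muscle of 16 male C57BL/6J mice (the strain label reads C57BL/6), bought at 6 weeks of age, with 4 mice and 1 library per mouse in each of 4 groups. Control mice ate a normal diet. HFD mice received a high-fat diet with 60% fat for 8 weeks before a further 6 weeks of treatment, during which the HFD + RSV group received resveratrol, a plant polyphenol, and the HFD + metformin group received metformin, a glucose-lowering drug. The muscle sampled and the ages at collection are not given in the sources used here, and the study gave insulin to some mice of each group shortly before collection without the sources stating which. All mice of the untreated HFD group carry a label number that begins with 7, which no other group has, so anything that this number marks cannot be told apart from the group.

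Libraries held 17625909 to 29761026 estimated counts in the mRNA table, and genes of skeletal muscle fibres dominated them, with a summed level of 21600 to 32230 FPKM (sequenced fragments scaled to gene length and library depth) over 8 genes. The label of the extraction protocol names retinas, but 6 photoreceptor and retinal genes together reached only 0.15 to 0.649 FPKM. Among other leukocytes, mast cell markers summed to 6.34 to 22.1 FPKM over 5 genes, highest in metformin 1, and dendritic cell markers to 4.93 to 10.1 FPKM over 5 genes. The neutrophil, T and NK cell, and B cell lists had no member with enough reads to be tested, and their summed levels did not pass 3.3, 1.08 and 0.626 FPKM in any mouse, against 40.8 to 142 FPKM for the 10 macrophage genes. Markers of white adipocytes varied widely between mice, from 146 to 4551 FPKM summed over 7 genes, and they were highest in control 3 (4551) and HFD + metformin 3 (3971). Numbers after a group name give the mouse in accession order and carry no rank. Because the tissue was sequenced in bulk, fewer macrophages and less RNA per macrophage cannot be told apart.

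Promoter sequences are shown for 3 of the 10 genes, chosen because they hold the letters GAGGAA on either strand. Many macrophage genes are known targets of the transcription factor PU.1, whose sites contain these letters. The 10 genes varied together across mice, as described further on, and the part of PU.1 in that was not tested. RefSeq promoters on GRCm38.p6 matched 6 of the 10 genes (Mrc1, Cd163, Itgam, Itgax, Lyz2 and Cd68). Adgre1, Csf1r, Cd14 and C1qa had no entry. The promoters of Cd163, Itgax and Lyz2 lack GAGGAA and are not printed. The 250 bases before the start are printed 5′ to 3′ on the strand of the gene, with capitals for GAGGAA or its reverse complement TTCCTC and for the AP-1 motif TGACTCA or its reverse complement TGAGTCA.
Mrc1, chr2:14229164-14229413, plus strand: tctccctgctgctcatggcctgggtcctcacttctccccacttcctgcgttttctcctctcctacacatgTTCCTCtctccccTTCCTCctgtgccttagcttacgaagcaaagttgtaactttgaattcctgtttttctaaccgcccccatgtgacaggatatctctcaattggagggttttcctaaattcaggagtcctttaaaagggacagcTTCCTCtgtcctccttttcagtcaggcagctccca
Itgam, chr7:128062390-128062639, plus strand: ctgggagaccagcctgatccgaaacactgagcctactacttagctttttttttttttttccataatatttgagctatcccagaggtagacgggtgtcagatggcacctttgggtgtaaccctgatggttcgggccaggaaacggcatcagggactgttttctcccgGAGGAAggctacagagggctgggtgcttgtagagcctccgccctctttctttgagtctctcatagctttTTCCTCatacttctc
Cd68, chr11:69666171-69666420, minus strand: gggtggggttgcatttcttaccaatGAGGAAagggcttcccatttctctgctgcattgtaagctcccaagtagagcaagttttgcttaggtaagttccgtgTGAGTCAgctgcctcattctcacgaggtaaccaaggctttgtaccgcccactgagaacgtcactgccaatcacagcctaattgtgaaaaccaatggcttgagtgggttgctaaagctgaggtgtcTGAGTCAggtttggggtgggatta
GAGGAA occurred on either strand in these 3 of 6 promoters, against 23.2% of all 32851 promoters. TGACTCA occurred in Cd68 and Itgax, 2 of 6, against 4.46% of all promoters, and CCAAT in 4 of 6, against 33.9%. None of the motifs searched lies inside another, though matches can share letters at their ends. A match of letters is a description of the sequence, and 6 promoters are too few to compare with the rest.

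The 10 genes differed widely in level. Lyz2, which encodes a secreted lysozyme that digests bacterial cell walls, was the most abundant, with a median of 44.1 FPKM over the 16 mice, and it stood above the next gene in 16 of 16 mice. C1qa, a chain of the complement protein C1q, followed at 9.39 FPKM and exceeded Cd163 in 14 mice. Cd163, the haemoglobin scavenger receptor, at 7.44 FPKM, Mrc1, the mannose receptor, at 7.31 FPKM, and Csf1r, the receptor for CSF1 and IL-34, at 7.2 FPKM lay so close that their order changed between mice, with Cd163 above Mrc1 in 12 of 16 mice and Mrc1 above Csf1r in 9. Csf1r exceeded Adgre1 in all 16 mice. Adgre1, which encodes the adhesion receptor known as F4/80, had a median of 2.78 FPKM and Cd68, a glycoprotein of late endosomes and lysosomes, 2.22 FPKM. These neighbours also overlapped, since Adgre1 was the higher in only 10 mice. Cd14, the co-receptor that hands lipopolysaccharide to TLR4, had 1.38 FPKM. Itgam, the integrin chain CD11b, had 1.13 FPKM. Itgax, the integrin chain CD11c that also marks dendritic cells, was lowest in all 16 mice at 0.296 FPKM, with 10 to 35 counts per mouse, so its values carry the widest counting error of the 10. In the GRCm38 positions of the deposited table, taken over all transcripts of a gene, Lyz2 lay at chr10:117277331-117282321, C1qa at chr4:136895917-136898803, Mrc1 at chr2:14229392-14332057, Cd68 at chr11:69664213-69666153 and Itgax at chr7:128129547-128150657, just beyond Itgam, while Csf1r and Cd14 lay on chromosome 18.

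**Figure D1:**
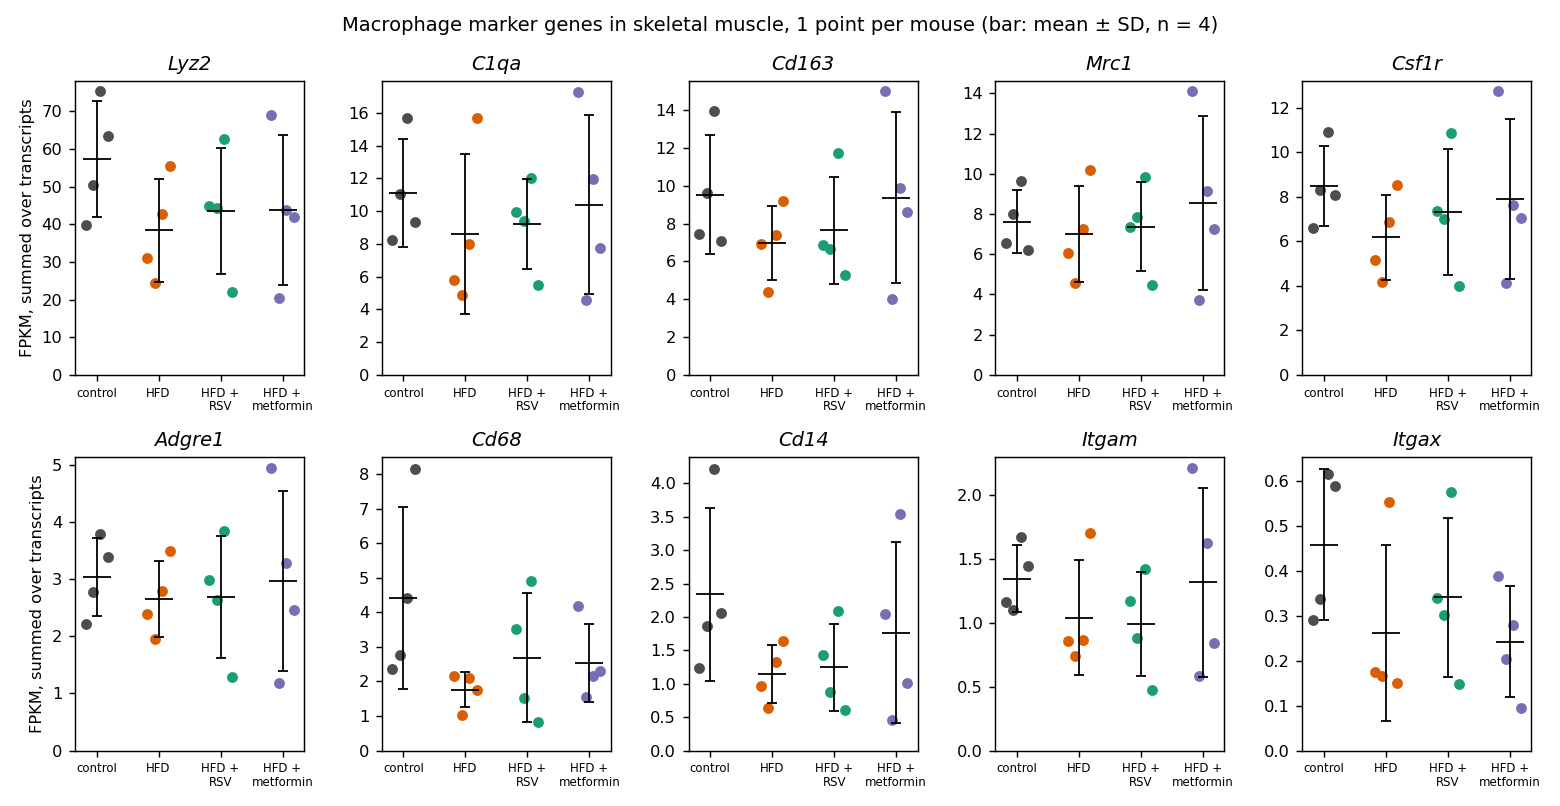
Level of each of the 10 macrophage marker genes in FPKM (vertical axes, each starting at 0) in the 4 groups, with 1 point per mouse and bars for the mean ± SD over 4 mice. Groups overlap for all genes except Cd68 between control and HFD, where the 4 control mice sit between 2.36 and 8.13 FPKM and the 4 HFD mice between 1.04 and 2.16.

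No macrophage marker gene passed the test between HFD and control muscle. Of the 10 genes, 0 passed edgeR's quasi-likelihood test at a Benjamini-Hochberg adjusted P below 0.05, where 2.43% of all genes tested did (374 genes, 203 higher and 171 lower in HFD). At an unadjusted P below 0.05 there was 1 of 10, against 24.2% of all genes, and DESeq2 also called 0. The log2 fold change was below 0 for 9 of 10 genes, with a median of −0.29, against 52.4% of all genes and a median of −0.02. By an unadjusted P below 0.05 with an absolute log2 fold change above 1, 1 gene (Cd68) was called, against 4.94% of all genes. Itgax (−0.50), Lyz2 (−0.43), Csf1r (−0.31), Cd163 (−0.27), Itgam (−0.25), C1qa (−0.24) and Adgre1 (−0.04) lay between −0.50 and 0 with intervals that included 0, as did that of Mrc1 (0.01, and −0.14 without a scaling factor). Precision differed by gene, and the 95% interval stayed within 1 log2 unit of 0, a doubling or a halving, for 4 of the 10 genes.

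Cd68 stood lowest relative to control. Its level was 2.36, 2.75, 4.42 and 8.13 FPKM in the control mice and 2.16, 1.04, 2.09 and 1.76 FPKM in the HFD mice. Every control mouse lay above every HFD mouse, by a narrow margin at the nearest pair, and control 4 was far above the other 3 control mice. Means were 4.42 ± 2.63 FPKM (SD, n = 4) and 1.76 ± 0.513 FPKM (SD, n = 4). The edgeR log2 fold change was −1.14 (SE 0.489, 95% interval −2.19 to −0.10), with an unadjusted P of 0.0344 and an adjusted P of 0.173. An exact two-sided permutation test of log2 CPM (the log of counts scaled to library depth) gave p = 0.0286, the smallest that 4 against 4 mice allows. Of all genes tested, 9.44% had 4 HFD mice below the 4 control mice in this way. Without control 4 the log2 fold change was −0.70 with an adjusted P of 0.407. Markers of white adipocytes lay lower in HFD in the same comparison, with a summed 912 to 4551 FPKM in control and 146 to 847 FPKM in HFD mice. Of these genes, 6 of 7 were below 0 (52.4% of all genes), with a median log2 fold change of −1.91, and 0 of 7 were called (2.43% of all genes). The part of adipocyte RNA in the Cd68 difference was not tested.

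Cd14 had the next largest difference. Control mice had 1.23, 1.87, 4.21 and 2.06 FPKM and HFD mice 0.972, 0.645, 1.32 and 1.64 FPKM. HFD 3 and HFD 4 lay above control 1, so the groups overlapped, and the highest value belonged to control 3, the mouse with the most adipocyte marker RNA. The log2 fold change was −0.87 (SE 0.507, adjusted P = 0.304 by edgeR), and the exact permutation p was 0.0857. Lyz2 was at 39.9, 50.3, 75.3 and 63.3 FPKM in control mice and 31.1, 24.4, 42.6 and 55.3 FPKM in HFD mice, with 2 HFD mice above the lowest control mouse. Its log2 fold change was −0.43 (SE 0.335, adjusted P = 0.451 by edgeR).

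Mrc1 and Adgre1 lay nearest to 0. Mrc1 was at 6.58, 8.02, 9.65 and 6.23 FPKM in control and 6.06, 4.57, 7.27 and 10.2 FPKM in HFD mice. The ranges lay across each other, with the highest and the lowest of these 8 mice both in the HFD group. The log2 fold change of 0.01 had a 95% interval of −0.66 to 0.67. Adgre1 was at 2.22, 2.78, 3.78 and 3.38 FPKM in control and 2.39, 1.94, 2.78 and 3.5 FPKM in HFD mice, which overlap along most of their length, with a 95% interval of −0.76 to 0.68 for the log2 fold change. Differences within these bounds, in either direction, could not be told from 0 with 4 mice a group.

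Resveratrol on the high-fat diet gave no called difference in the macrophage genes. Against HFD, 0 of 10 genes passed the adjusted threshold, as did 0% of all 15364 genes, so the comparison called nothing in this muscle, and 4.72% of genes (725) and 0 members had an unadjusted P below 0.05. The 10 log2 fold changes ran from −0.27 (Itgam) to 0.58 (Cd68), 8 above and 2 below 0 (48.9% of all genes were below 0), with a median of 0.07, against 0.00 over all genes, and every adjusted P was 0.999. Cd68 was at 3.51, 1.52, 4.9 and 0.836 FPKM in the HFD + RSV mice. That spread took in all 4 HFD mice, and its log2 fold change of 0.58 had a 95% interval of −0.46 to 1.63. For 6 genes the interval stayed within 1 log2 unit of 0.

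Metformin on the high-fat diet likewise gave 0 of 10 called genes against HFD, where 0.013% of all genes (2) were called, and 0 members had an unadjusted P below 0.05, against 8.02% of all genes. Log2 fold changes ran from −0.24 (Itgax) to 0.49 (Cd68), 9 above and 1 below 0 (46.9% of all genes were below 0), with a median of 0.17 against 0.02 over all genes, and adjusted P values from 0.788 to 0.991. Cd14 was at 2.04, 0.457, 3.54 and 1.02 FPKM in the metformin mice, the widest range of any gene in any group at 7.74-fold. The lowest Cd14 level of all 16 mice was in this group, in metformin 2. The summed adipocyte list ran from 163 FPKM in metformin 2 to 3971 FPKM in metformin 3, the mouse with the highest Cd14 in its group, and the part of adipocyte RNA in these values was not tested.

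**Figure D2:**
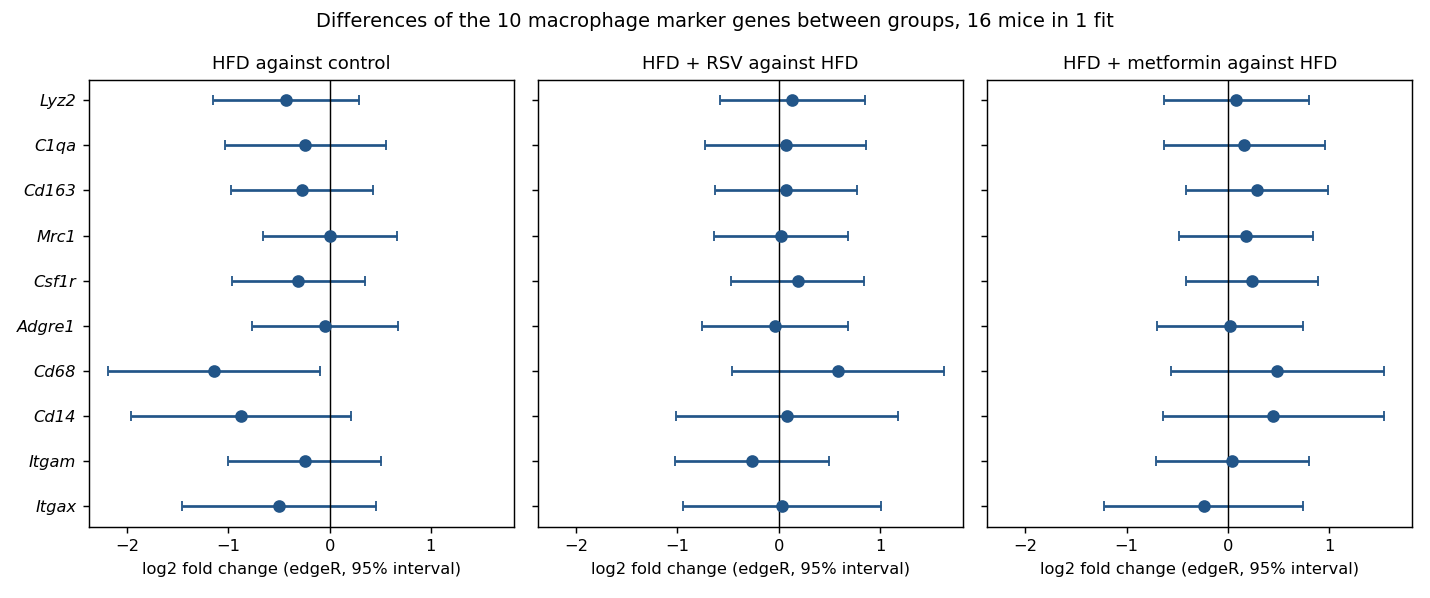
Log2 fold change of each of the 10 genes (horizontal axis) with its 95% interval in edgeR's fit over 16 mice, for HFD against control, HFD + RSV against HFD and HFD + metformin against HFD. The interval of Cd68 in HFD against control, −2.19 to −0.10, is the one that does not include 0, and it is not adjusted for the number of genes tested.

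The treated groups were also set against control and against each other. HFD + RSV against control gave 0 of 10 called genes (0.00651% of all genes), with 9 genes below 0 (51.2% of all genes) and a median log2 fold change of −0.25. HFD + metformin against control gave 0 of 10 (0% of all genes), with 8 below 0 (48.2% of all genes) and a median of −0.14. HFD + RSV against HFD + metformin gave 0 of 10 (0% of all genes), with 7 below 0 (50.7% of all genes) and values from −0.37 to 0.27. In none of these did a member have an unadjusted P below 0.05, where 15.8%, 9.5% and 4.68% of all genes did. These comparisons share mice with those above, so they are not separate evidence. A test for any difference among the 4 groups gave P from 0.176 (Cd68) to 0.996 (Adgre1), all adjusted P at or above 0.51, with 0.117% of all genes called.

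Single mice within a group differed by more than the group means did. HFD + RSV 3 had the highest level in its group, in log2 CPM, for 10 of 10 macrophage genes and HFD + RSV 4 the lowest for 10 of 10. In the metformin group, mouse 1 was highest for 9 genes and mouse 2 lowest for 9. HFD 2 was lowest for 10 and HFD 4 highest for 8, and control 3 was highest for 8. Across all 16 mice, metformin 1 was the highest for 7 genes and metformin 2 the lowest for 6. Averaged over the 10 genes, each centred on its own mean, the log2 CPM of single mice ran from −0.02 to 0.61 in control, −0.66 to 0.26 in HFD, −0.86 to 0.56 in HFD + RSV and −0.89 to 0.74 in HFD + metformin. These ranges correspond to 1.55-fold, 1.89-fold, 2.67-fold and 3.1-fold between the lowest and the highest mouse of a group. The group means were 0.27 ± 0.28, −0.14 ± 0.41, −0.10 ± 0.60 and −0.04 ± 0.67 (SD, n = 4 each). The means of the 3 HFD groups lay below the lowest control mouse (−0.02) and the control mean above the highest HFD mouse (0.26), while mice of all 4 groups overlapped.

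**Figure D3:**
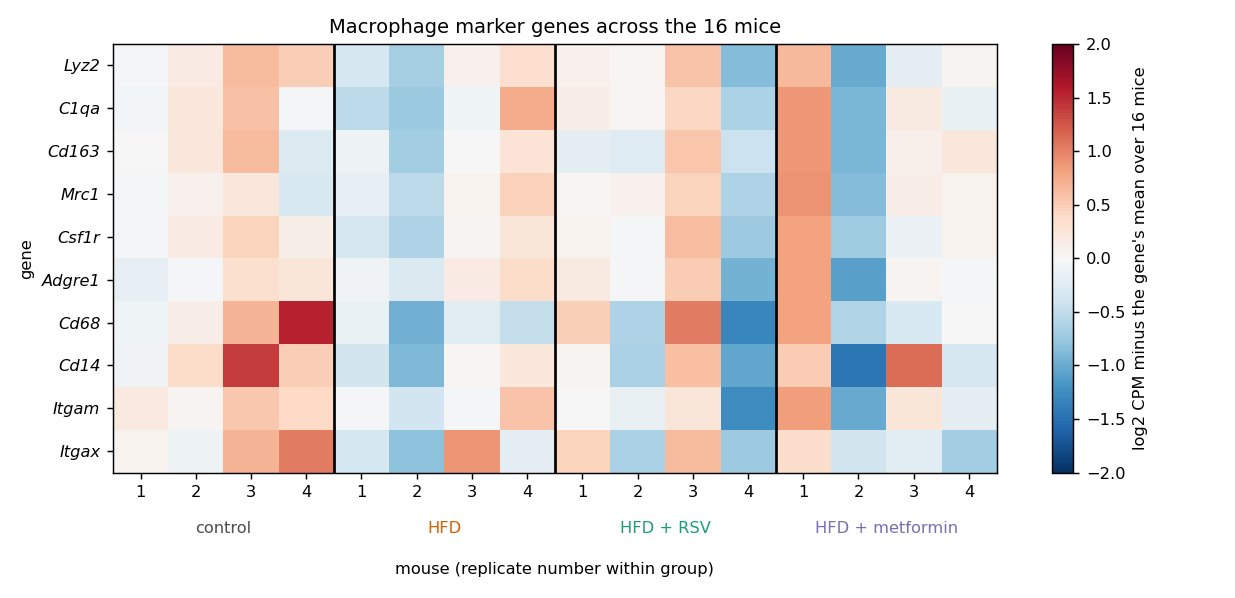
Log2 CPM of each of the 10 genes minus its mean over 16 mice (colour, red above and blue below the mean), with mice in columns by group and genes in rows from the highest to the lowest median FPKM. Columns tend to hold 1 colour: metformin 1 and HFD + RSV 3 are above the mean for all 10 genes, and metformin 2 and HFD + RSV 4 below it for all 10.

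In the 45 pairs of members, Pearson's r of log2 CPM over the 16 mice was above 0 in all 45, from 0.39 to 0.96 with a median of 0.81, and Spearman's rho had a median of 0.78. With group means removed the median r was 0.81, and without the 2 mice farthest from the median it was 0.72. The points share their library and its scaling to depth, and counting error can lower r for genes with few counts. The part of counting error in these r values was not tested. Csf1r went most closely with the other members, with a median r of 0.91, and Itgax (0.60) and Cd68 (0.69) least closely. The ratio of C1qa to C1qb, chains of the same protein, moved between 0.754 and 1.12 in FPKM, and that of Cd163 to Mrc1 between 0.845 and 1.44. Other ratios were wider, from 1.05 to 2.75 for C1qa to C1qc, the third chain of C1q, 0.469 to 1.22 for Itgam to Itgb2, 0.204 to 1.77 for Cd14 to Tlr4, 0.807 to 4.49 for Cd14 to Ly96 and 0.0388 to 0.199 for Itgax to Adgre1. The levels of C1qa, Cd163 and Mrc1 themselves spanned 3.75-fold to 3.78-fold. Among 15354 other genes tested, 28 had an r above 0.9 with the mean of the 10 members. The 10 with the highest r were Nckap1l (0.96), a haematopoietic regulator of the actin skeleton, Cybb (0.95), the catalytic chain of the phagocyte NADPH oxidase, Unc93b1 (0.94), which moves endosomal Toll-like receptors, Man2b1 (0.94), a lysosomal mannosidase, Ptprc (0.94), the pan-leukocyte antigen CD45, Cd53 (0.94), a leukocyte tetraspanin, Spi1 (0.94), which encodes PU.1, C1qb (0.93), Ms4a6c (0.93) and Alox5ap (0.93), the 5-lipoxygenase activating protein.

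Markers of white adipocytes and fibroblasts moved with the members from mouse to mouse, and those of several other cell types did not. Over the 16 mice, r between the mean of the 10 members and that of the white adipocyte list was 0.81 and with the fibroblast list 0.81, and it was −0.33 for endothelial cells and −0.36 for muscle fibres. Without the 2 farthest mice these were 0.73, 0.62, −0.07 and 0.04. Over all 16 mice, r was 0.65 for mast cells, 0.12 for red blood cells, 0.08 for lymphatic endothelial cells and −0.13 for Schwann cells. The adipocyte list summed to 1405 and 163 FPKM in metformin 1 and 2, and to 986 and 216 FPKM in HFD + RSV 3 and 4, the pairs of mice with the highest and the lowest macrophage levels of their groups. Of its defining genes, Adipoq ran from 2.37 to 279 FPKM and Plin1 from 1.45 to 202 FPKM. Fibroblast markers summed to 372 and 184 FPKM in the first pair and 301 and 167 FPKM in the second. The other groups followed this less closely. HFD 4 and HFD 2, with the highest and the lowest macrophage level of their group, both had 259 FPKM. In control, mouse 3 had the highest macrophage level, with 339 FPKM of fibroblast markers, while mouse 4 had the most, 357 FPKM. Metformin 3, with 3971 FPKM of adipocyte markers, had a mean macrophage level of only 0.10 on the centred log2 scale, so the 2 measures were not in a fixed ratio. Without control 3 and metformin 3, the count of called macrophage genes was 0 in all 6 comparisons, an alternative chosen after seeing the data, and the part of fat or connective tissue in the differences between mice was not tested.

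**Figure D4:**
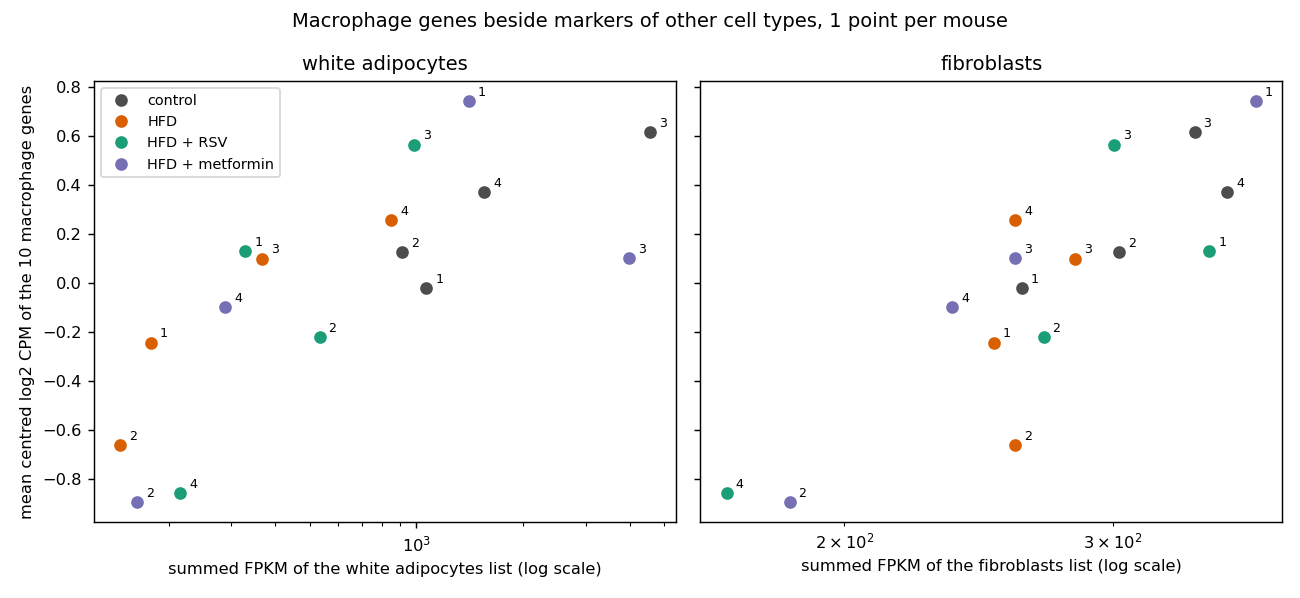
Mean centred log2 CPM of the 10 macrophage genes (vertical axis) against the summed FPKM of the white adipocyte list (left) and of the fibroblast list (right), both on log axes, with 1 point per mouse, coloured by group and numbered by mouse. Mice with low adipocyte marker levels, such as HFD 2 (146 FPKM) and metformin 2 (163 FPKM), have low macrophage gene levels, while metformin 3, at 3971 FPKM, lies near the middle.

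Other lists of macrophage genes gave 1 call in all, and they followed the members to differing degrees. Of 15 further macrophage genes, among them C1qb, Mertk, a receptor for dying cells, Tyrobp, a signalling adaptor, and Mpeg1, a pore-forming protein, 15 were tested and 0 called in any of the 6 comparisons. Of all genes tested, 2.43% were called in HFD against control and at most 0.013% in any other comparison. In HFD against control, 12 of the 15 were below 0 with a median log2 fold change of −0.27, against 52.4% of all genes and a median of −0.02. The mean of these 15 genes had an r of 0.98 with the members over the 16 mice. That r was 0.85 for beta2 integrin partners and ligands, 0.83 for resident perivascular macrophages, 0.80 for the CSF1 receptor axis and transcription factors, 0.64 for alternative activation, 0.61 for both lipid-associated macrophages and monocytes, 0.60 for dendritic cells, 0.55 for LPS co-receptors and signalling and 0.25 for inflammatory activation. The lists of LPS co-receptors and signalling (7 genes tested, median −0.41), resident perivascular macrophages (11, −0.28), beta2 integrin partners and ligands (5, −0.30), alternative activation (5, −0.03), inflammatory activation (3, 0.32), lipid-associated macrophages (9, −0.58), monocytes (4, −0.72) and dendritic cells (4, 0.43) also had 0 genes called in that comparison. In the lipid-associated list 5 of 9 genes had an unadjusted P below 0.05, against 24.2% of all genes, with a lowest adjusted P of 0.0668, and Lpl and Fabp5 in it are also known to be abundant in fat or muscle. Of the inflammatory list, 6 of 9 genes were not tested, for too few reads or no row.

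Among the ligands of the CSF1 receptor and the transcription factors of macrophages, 1 of 8 genes was called in HFD against control, where 2.43% of all genes were. Maf, which encodes the c-Maf factor that drives genes of resident macrophages and is also expressed in other cells of muscle, rose in HFD, from 27.2 ± 4.18 FPKM in control to 45.2 ± 2.44 FPKM in HFD (SD, n = 4 each). Its log2 fold change was 0.85 (SE 0.191, adjusted P = 0.0418 by edgeR). The call was lost, with an adjusted P of up to 0.113, when control 2, 3 or 4, any of the 4 HFD mice, HFD + RSV 1, 3 or 4, or metformin 1 was left out, while over all alternatives the log2 fold change lay between 0.69 and 0.99. The ligands Csf1 (4.31 ± 0.17 and 4.53 ± 1.15 FPKM in control and HFD) and Il34 (2.42 ± 0.124 and 2.55 ± 0.437 FPKM) were not called. Spi1 had 1.35 ± 0.298 FPKM in control and 0.74 ± 0.226 FPKM in HFD (SD, n = 4 each), and was not called either. Its edgeR log2 fold change, from counts, was −0.36 (SE 0.37, adjusted P = 0.575), a smaller drop than the FPKM means show. By edgeR, the log2 fold change was 0.38 for Il34 (SE 0.18, adjusted P = 0.208) and 0.18 for Csf1 (SE 0.175, adjusted P = 0.563). Among partners of the members, Itgb2, the shared chain of the CD11b and CD11c integrins, had a median of 1.45 FPKM, above both Itgam and Itgax, with Tlr4 at 1.22 FPKM and Ly96, which binds lipopolysaccharide for TLR4, at 0.867 FPKM. Over all lists other than the members, 115 of 150 genes were tested, and Maf was the single call in the 6 comparisons.

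Transcripts of the members gave no call either. Of their 26 transcripts, 18 were tested among 44573, and 0 passed in any of the 6 comparisons, with a lowest adjusted P of 0.38 by edgeR. Of all 44573 transcripts, 7 passed in HFD against control and at most 3 in any other comparison. Almost no transcript passed at all, so 0 of 18 says little about the members. Adgre1 (chr17:57358686-57483529, GRCm38) had transcripts ENSMUST00000004850 and ENSMUST00000086763. The first was at 0 in 9 of 16 mice and reached 80.4% of the gene's counts in metformin 1. Mice with and without it occurred in every group, while the sum of both varied only from 114 to 319 counts. Where transcripts share most of their length, as here, the division of reads between them by the counting program is uncertain, and the sum of the gene does not depend on it.

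Cd163 (chr6:124304656-124330527) showed a similar exchange. ENSMUST00000112541 made up 76.9% of the counts in HFD 4, 69.1% in HFD + RSV 1 and 71.8% in HFD + RSV 4. In the other 13 mice it lay between 0% (metformin 2) and 30% (HFD 2), and ENSMUST00000032234 held 43.5% to 74.7%. The 3 mice with the exchanged shares belonged to the HFD and HFD + RSV groups, and no test called it. Among their differences are 83 bases at the start of exon 16 of ENSMUST00000112541, which the other transcript lacks in the GENCODE vM21 annotation. They are printed because they separate these transcripts inside the gene, on the plus strand of GRCm38 at chr6:124328962-124329044.
Cd163 exon 16 stretch: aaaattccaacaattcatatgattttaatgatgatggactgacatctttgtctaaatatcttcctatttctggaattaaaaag
In the lncRNA table, 2 rows overlap Cd163 and held 2216 counts over 16 mice, a number equal to 16.4% of the 13506 mRNA counts of the gene but not part of them, and adding them left 0 members called. The remaining genes were read mainly through 1 transcript, such as Mrc1 (98.1% of counts) and Csf1r (98.9%), except Itgam (chr7:128062640-128128160), whose counts were divided over 7 transcripts. One of these, at 6.74% of the counts, runs into a neighbouring gene and carries its own gene identifier. ENSMUST00000106240 of Itgam was at 0 in 11 of 16 mice, all HFD mice among them, and held 65.7% of the counts in HFD + RSV 3, 74.5% in HFD + RSV 4 and 77.6% in metformin 2.

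**Figure D5:**
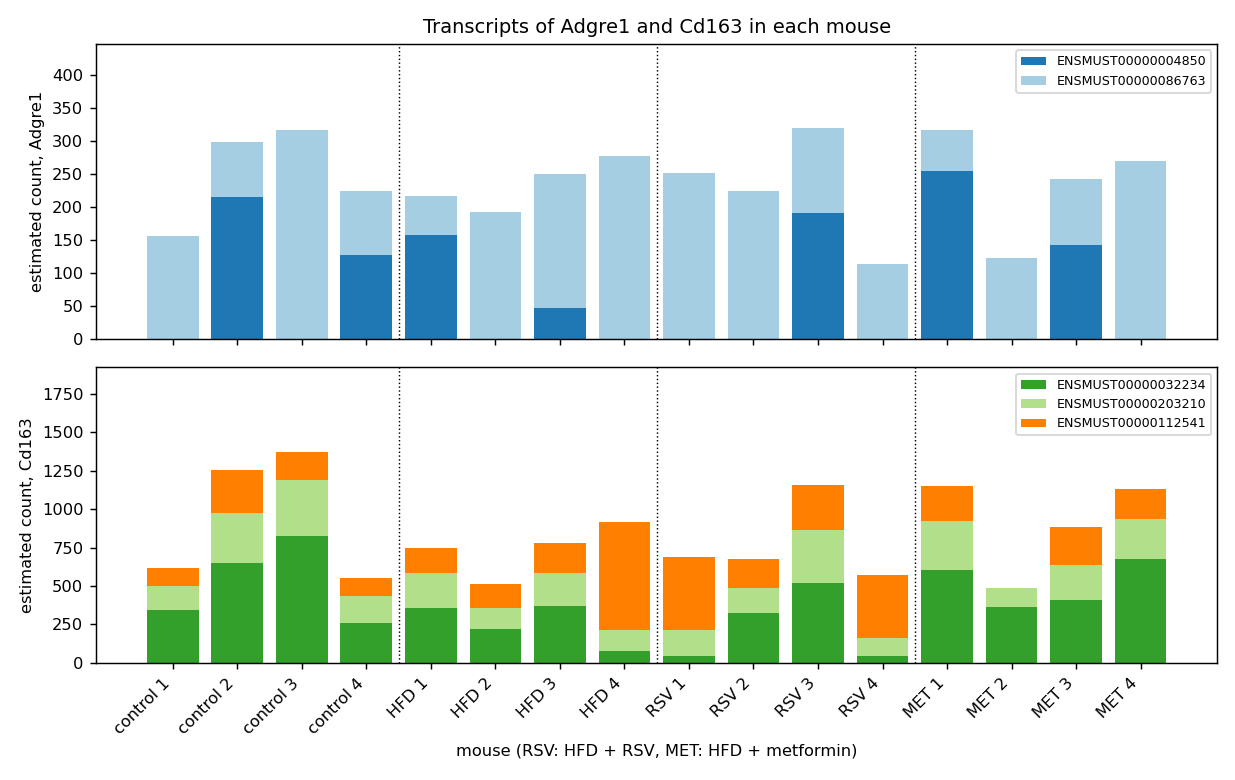
Estimated counts of the transcripts of Adgre1 (top) and Cd163 (bottom) in each of the 16 mice, stacked, so that the height of a bar is the count of the gene. ENSMUST00000004850 of Adgre1 is at 0 in 9 mice, and ENSMUST00000112541 of Cd163 fills most of the bar in HFD 4, HFD + RSV 1 and HFD + RSV 4.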

How the data were processed

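RNA of skeletal muscle from 16 mice was sequenced from both fragment ends on an Illumina NovaSeq after removal of ribosomal RNA. The sources name both Trizol and an RNeasy kit for extraction, and do not state whether libraries kept strand. The authors trimmed reads with fastp, aligned them to GRCm38 with HISAT2 and counted fragments with StringTie (versions of the first pair not given in the sources used here). They deposited estimated counts, whole numbers per transcript that StringTie derives from coverage, and FPKM, for mRNA and lncRNA. Replicates were mice and were not pooled.

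Counts were summed by gene name, and 4 transcripts split over 2 lines were joined. FPKM were summed over transcripts. Genes were kept with a minimum count of 10 (edgeR filterByExpr, minimum total 15) and scaled by TMM, with factors from 0.894 to 1.19. All 16 mice were fitted in 1 edgeR quasi-likelihood model without covariates (edgeR 4.0.16, R 4.3.3, biological coefficient of variation 0.261), with P values adjusted by Benjamini-Hochberg over 15364 genes. The study's own threshold, an unadjusted P below 0.05 with an absolute log2 fold change above 1, was an alternative, as were DESeq2 1.42.0, other scalings, filters and mice. Permutation tests were exact and two-sided. CPM are counts scaled to library depth, and their log2 used a prior count of 2. Steps were tested on simulated data. No 2 libraries had identical counts. Transcript sequences and exons came from GENCODE vM21.

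The members and the lists of marker genes were chosen with earlier results of these data known. The text names all members, list genes past the threshold in any comparison, defining genes of lists, genes of the closest macrophage lists, the 10 genes most like the members across mice, and transcripts with at least 10% of the counts of their gene. Lpl and Fabp5 fall outside that rule and were named after their values were seen.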

Additional observations from a re-analysis of the deposited data

How the results depend on the processing

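The count of macrophage genes called at an adjusted P below 0.05 was 0 in all 6 comparisons and in the test of any difference among groups, and it stayed 0 under other scalings, DESeq2, no filter, smaller sets of mice and each mouse left out in turn (range 0 to 0). The lowest adjusted P of a member under any alternative was 0.0929, for Cd68 in HFD against control with only the mice of those groups fitted. With an unadjusted P below 0.05 and an absolute log2 fold change above 1, the count in HFD against control was 1 (Cd68), against 4.94% of all genes, and 0 elsewhere. The log2 fold change of Cd68 in that comparison ran from −1.33 to −0.70, the weakest without control replicate 4. Of the 60 log2 fold changes of members, 39 changed sign under some alternative, none of them called and none above 0.449 in size in the reported fit. Maf was called in HFD against control under 14 of 26 alternatives, always with a log2 fold change above 0.

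Without a scaling factor the log2 fold change changed sign, uncalled in each case, for Mrc1 in HFD against control (−0.14), Adgre1 in HFD + RSV against HFD (0.022), Mrc1 in HFD + RSV against control (−0.070), Cd163 in HFD + metformin against control (−0.027) and Lyz2 in HFD + RSV against HFD + metformin (−0.013). Without the 2 mice rich in adipocyte RNA the log2 fold change changed sign, uncalled in each case, for Adgre1 in HFD against control (0.039), Itgam in HFD + metformin against HFD (−0.010), Cd14 in HFD + metformin against HFD (−0.046), Adgre1 in HFD + RSV against control (0.0099), Adgre1 in HFD + metformin against control (0.062), Csf1r in HFD + metformin against control (0.092), C1qa in HFD + metformin against control (0.063), Cd68 in HFD + RSV against HFD + metformin (−0.0053) and Cd14 in HFD + RSV against HFD + metformin (0.13).

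With single mice left out in turn, the log2 fold changes that crossed 0 had these ranges. In HFD against control, Mrc1 ran from −0.19 to 0.15 and Adgre1 from −0.16 to 0.061. In HFD + metformin against control, Cd163 ran from −0.30 to 0.25, Adgre1 from −0.38 to 0.22, Csf1r from −0.40 to 0.13, C1qa from −0.44 to 0.16, Mrc1 from −0.16 to 0.41 and Itgam from −0.55 to 0.041. In HFD + RSV against control, Adgre1 ran from −0.29 to 0.14, Mrc1 from −0.14 to 0.20, Csf1r from −0.37 to 0.069 and C1qa from −0.32 to 0.0016. In HFD + RSV against HFD, Mrc1 ran from −0.15 to 0.21, Itgax from −0.26 to 0.54, C1qa from −0.11 to 0.46, Cd163 from −0.19 to 0.22, Lyz2 from −0.098 to 0.34, Cd14 from −0.28 to 0.30, Adgre1 from −0.25 to 0.18 and Csf1r from −0.064 to 0.38. In HFD + metformin against HFD, Adgre1 ran from −0.33 to 0.27, Lyz2 from −0.22 to 0.31, Itgam from −0.30 to 0.29, C1qa from −0.20 to 0.56, Itgax from −0.49 to 0.27, Cd163 from −0.024 to 0.53, Mrc1 from −0.17 to 0.41, Csf1r from −0.094 to 0.43 and Cd14 from −0.045 to 0.76. In HFD + RSV against HFD + metformin, Cd68 ran from −0.37 to 0.45, Lyz2 from −0.18 to 0.35, Itgax from −0.015 to 0.52, Adgre1 from −0.30 to 0.30, Mrc1 from −0.38 to 0.19, Csf1r from −0.30 to 0.28, C1qa from −0.32 to 0.27, Cd163 from −0.48 to 0.094, Itgam from −0.55 to 0.038 and Cd14 from −0.73 to 0.12. None was called, so the direction of these members is not settled by the data.

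No paired analysis was possible because the labels do not say what the numbers in the mouse names mean, no pair of groups shares more than 1 full number, and mice were numbered here in accession order. With 4 mice a group, 4 to 7 members per comparison had an interval within 1 log2 unit of 0, and Itgax, with 10 to 35 counts per mouse, limits what can be read from it. Dixon's test found 0 mice apart from their group in 40 checks of the members. Results of alternatives chosen after seeing the data (adding overlapping lncRNA counts, leaving out the readthrough transcript of Itgam, and leaving out 2 mice rich in adipocyte RNA) did not change a call.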
